A study of Mus musculus with 8 samples.

Results

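The MYC, MAX and MXD network is described here as transcript levels in mouse hematopoietic stem cells with and without a Huwe1 deletion. Its 10 genes (Myc, Mycn, Mycl1, Max, Mxd1, Mxd3, Mxd4, Mxi1, Mnt and Mga) were taken by name from the 23358 genes of the count table, and all 10 were found there. The table has 8 RNA-seq libraries from uncultured bone marrow cells in the gate Lin-Sca+Kit+CD48-CD150+. The groups are 3 wild type libraries, 3 labelled Huwe1 KO (Mx1-Cre) and 2 labelled Huwe1 KO (Vav-Cre). Mx1-Cre deletes in cells that respond to interferon, upon induction, and Vav-Cre deletes constitutively in blood cells. The labels say "no treatment" for every sample, name no inducing agent, and name no Cre for wild type, so an effect of Cre or induction cannot be told apart from one of Huwe1 loss. No label states the age of the mice, how many contributed to a library, or that libraries came from separate animals. A p-value therefore reflects the spread among these libraries alone, which may be technical.

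MYC, N-MYC and L-MYC are basic helix-loop-helix leucine zipper proteins that bind DNA only as dimers with MAX, preferably at the E-box CACGTG, and raise transcription of genes for growth and metabolism. The MXD proteins, MXI1, MNT and MGA also dimerise with MAX at such sites and repress, the MXD proteins and MNT through the SIN3 corepressor and MGA within a Polycomb complex. In blood stem cells MYC and N-MYC are known to act together in survival and in the balance of self-renewal and differentiation. HUWE1 is a ubiquitin ligase, and N-MYC and MYC are among the proteins it is reported to modify. The comparisons ask whether the transcripts of the network differ between the knockout lines and wild type. Protein was not measured.

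Total counts were 28689765 to 33202926 per library, and 14086 genes passed the filter on low counts. Huwe1 itself lay at 398 to 434 CPM (counts scaled to library size, here with edgeR's TMM factors) in wild type, 399 to 444 with Mx1-Cre and 445 and 490 in the Vav-Cre libraries. Its log2 fold change was -0.01 ± 0.11 (SE) and 0.15 ± 0.13, with edgeR adjusted p = 0.979 and 0.682, although both Vav-Cre libraries lay above the wild type range. One count per gene does not show the loss of single exons, so the labels are used as given. The sorting markers Kit, Ly6a and Slamf1 were detected in all libraries (42.4 CPM or more). Of the genes sorted against, Cd3e and Cd8a had no count in either knockout line and Ms4a1 none in the Vav-Cre libraries, and the list of 8 such genes, which includes the gate marker Cd48 (14.8 to 22.5 CPM), summed to 31.3 to 39.5 CPM in the wild type libraries, 36.0 to 48.1 with Mx1-Cre and 21.7 to 27.6 in the Vav-Cre libraries. The 6 myeloid progenitor genes summed to 436 to 702 CPM in the wild type libraries, 162 to 209 with Mx1-Cre and 154 to 375 in the Vav-Cre libraries, and the 7 neutrophil genes to 303 to 1080, 95.9 to 544 and 6.59 to 256 CPM. The part of these differences in the levels of the network was not tested, and in bulk libraries fewer cells of a type and less RNA per cell cannot be told apart.

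Myc was by far the most abundant member. Scaled by exon length, its wild type level was 262 ± 41.1 CPM per kb (SD, n = 3). Mycn followed at 38.4 ± 5.10 and Mga at 29.5 ± 1.24 CPM per kb. These top levels did not overlap among the wild type libraries, with 223 to 305 for Myc, 32.5 to 41.8 for Mycn and 28.6 to 31.0 CPM per kb for Mga. A middle group held Max (9.21 ± 2.86), Mnt (7.31 ± 0.543), Mxi1 (6.98 ± 0.433) and Mxd1 (6.90 ± 1.24 CPM per kb), whose library ranges overlapped, so their order is not resolved. Mxd3 (4.27 ± 1.04) and Mxd4 (1.00 ± 0.373 CPM per kb) came last. Mycl1 was at background: 3 counts in all were found in wild type libraries and 0 in the others, where 3 counts would be 0.0926 to 0.109 CPM. It did not pass the filter and is not tested, so statements on tested members cover 9 of 10.

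**Figure D1:**
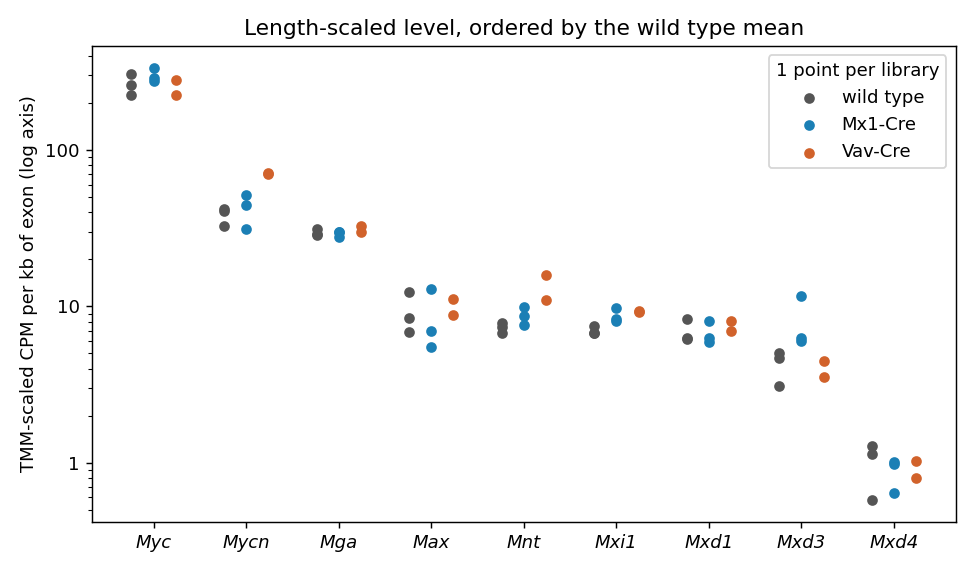
Level of 9 network genes, in TMM-scaled CPM per kb of exon on a log axis, ordered by the wild type mean, with 1 point per library. Myc lies above every other member in all 8 libraries, Mycn and Mga follow, and Mxd4 is lowest at 0.578 to 1.28 CPM per kb.

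No member passed the test in any comparison (edgeR quasi-likelihood test, Benjamini-Hochberg adjusted p below 0.05 over 14086 genes). With both lines averaged against wild type 0 of 9 were called, where 2.65% of all tested genes were. In the Mx1-Cre libraries against wild type 0 of 9 were called against 2.49% of all genes, in the Vav-Cre libraries 0 of 9 against 0.511%, and in Vav-Cre minus Mx1-Cre 0 of 9 against 0.170%. At an unadjusted p under 0.05 there were 3, 2, 3 and 3 members in these comparisons, where 16.5%, 16.6%, 13.4% and 13.3% of all tested genes had such a p. Against wild type, each of these members had a positive log2 fold change. Of all tested genes with such a p, 860 of 2327, 869 of 2345 and 812 of 1888 were positive. The members recur across comparisons that share the wild type libraries, with Mxi1 in each. DESeq2 called 1, 0, 2 and 1 members, and 6.27%, 6.92%, 4.38% and 3.17% of all genes it adjusted. The members' median log2 fold change was 0.07 for both lines averaged, 0.15 for Mx1-Cre and 0.11 for Vav-Cre, beside 0.00, 0.01 and -0.01 over all tested genes.

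Among the activators, Mycn differed most in the Vav-Cre line and with both lines averaged. It lay at 91.1, 117 and 114 CPM in the wild type libraries, 125, 87.5 and 145 with Mx1-Cre, and 198 and 199 in the Vav-Cre libraries. Both Vav-Cre libraries thus stood above all 6 others, while the Mx1-Cre libraries spanned the wild type range on both sides. The Vav-Cre log2 fold change was 0.88 ± 0.20 (SE, 95% interval 0.44 to 1.33), or 1.84-fold, with adjusted p = 0.0914 in edgeR and 0.00378 in DESeq2. The call therefore depends on the tool, and it was also made by edgeR with only the groups compared (adjusted p = 0.0374) or with no filter (0.0484). Leaving out 1 library at a time gave 0.78 to 0.95 with adjusted p from 0.0334, without Mx1-Cre 2, to 0.276. In the Mx1-Cre libraries the value was 0.15 ± 0.18 (interval -0.26 to 0.55). The difference between the lines, tested directly, was 0.74 ± 0.20 (interval 0.29 to 1.18, adjusted p = 0.182, DESeq2 0.0385). With both lines averaged Mycn had 0.51 ± 0.17 (adjusted p = 0.152), and without Mx1-Cre 2 this became 0.62 with adjusted p = 0.0316.

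Myc, in contrast, differed little between groups. Its levels were 746, 634 and 546 CPM in the wild type libraries, 670, 822 and 704 with Mx1-Cre, and 550 and 687 in the Vav-Cre libraries. The groups overlapped throughout, with wild type alone spanning most of the range. The log2 fold change was 0.19 ± 0.15 (interval -0.15 to 0.53) with Mx1-Cre and -0.05 ± 0.17 (interval -0.43 to 0.33) in the Vav-Cre libraries, with edgeR adjusted p = 0.600 and 0.936. These intervals leave out a 2-fold difference in either direction. The small Vav-Cre value turned to 0.07 without wild type 1 and to 0.10 without Vav-Cre 1.

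The Mycn share of the MYC family counts was highest in the Vav-Cre libraries, a comparison given as values without a test. Of Myc and Mycn counts together, Mycn gave 10.9% (95% Wilson interval 10.5 to 11.3), 15.6% (15.1 to 16.1) and 17.3% (16.8 to 17.8) in the wild type libraries. It gave 15.7% (15.3 to 16.2), 9.62% (9.26 to 9.99) and 17.1% (16.6 to 17.5) in the Mx1-Cre libraries. In the Vav-Cre libraries the share was 26.5% (25.9 to 27.1) and 22.4% (21.9 to 22.9). The Vav-Cre shares were above all others and the wild type and Mx1-Cre shares overlapped. The intervals cover counting error only and are far narrower than the spread between libraries of a group. Per exon length, Myc stayed the more abundant of the pair in every library, by a ratio of 5.47 to 9.38 in wild type, 5.57 to 10.8 with Mx1-Cre, and 3.18 and 3.96 in the Vav-Cre libraries. The length-scaled sum of both was 264 to 337 CPM per kb in wild type, 319 to 367 with Mx1-Cre, and 295 and 352 in the Vav-Cre libraries, so the groups overlapped in the sum.

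**Figure D2:**
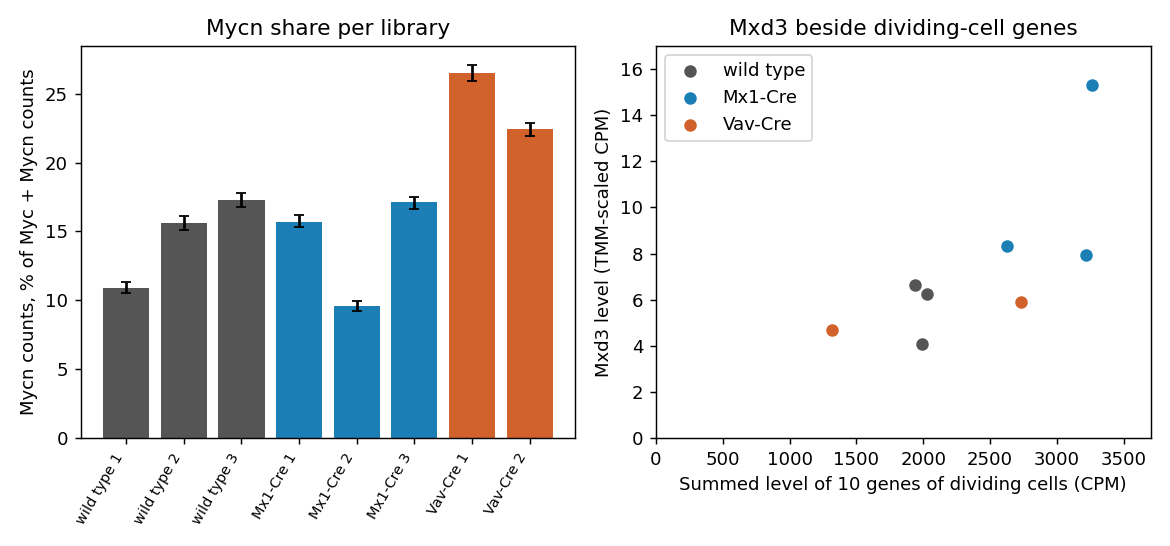
Left, Mycn counts as a percent of Myc plus Mycn counts in each library, with 95% Wilson intervals. The Vav-Cre bars, at 26.5% and 22.4%, exceed the other 6, which reach 17.3% at most. Right, the Mxd3 level in each library against the summed level of 10 genes of dividing cells, both in TMM-scaled CPM: the 3 Mx1-Cre points lie above the others in Mxd3. In the summed level Vav-Cre 1 (2730 CPM) lies above Mx1-Cre 2 (2630).

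Max, the shared partner, varied more between libraries of 1 group than between groups. It lay at 13.4, 16.5 and 24.2 CPM in the wild type libraries, 13.7, 10.8 and 25.5 with Mx1-Cre, and 17.2 and 21.7 in the Vav-Cre libraries. Both Vav-Cre libraries lay inside the range of each other group. The log2 fold change was -0.11 ± 0.33 with Mx1-Cre and 0.11 ± 0.37 in the Vav-Cre libraries (adjusted p = 0.908 and 0.940), and both values turned sign when certain single libraries were left out (0.16, 0.01 and 0.14 without wild type 3, Mx1-Cre 1 or Mx1-Cre 2, and -0.07 without wild type 1 or Vav-Cre 2). The intervals, -0.85 to 0.62 and -0.71 to 0.93, were wide on both sides of 0. The length-scaled sum of Myc and Mycn exceeded that of Max by 21.3 to 66.7 times in every library.

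Of the repressors, Mnt, a broadly expressed MAX partner, differed most in the Vav-Cre line and with both lines averaged. Its levels were 30.9, 35.8 and 33.9 CPM in the wild type libraries, 45.6, 34.9 and 40.0 with Mx1-Cre, and 50.5 and 72.4 in the Vav-Cre libraries. Vav-Cre lay above both other groups without overlap, and 2 of 3 Mx1-Cre libraries were above the wild type range. In the Vav-Cre libraries the log2 fold change was 0.87 ± 0.20 (interval 0.44 to 1.31), or 1.83-fold, with adjusted p = 0.0866 in edgeR and 0.00326 in DESeq2. Library Vav-Cre 2 weighs on that size: without it the value was 0.59 (adjusted p = 0.401), and without Vav-Cre 1 it was 1.11 (adjusted p = 0.0384). In the Mx1-Cre libraries it was 0.26 ± 0.18 (interval -0.14 to 0.65, adjusted p = 0.522). The difference between the lines was 0.61 ± 0.20 (adjusted p = 0.229, DESeq2 0.106), and 0.33 without Vav-Cre 2. With both lines averaged Mnt had 0.57 ± 0.16 (adjusted p = 0.105), and it was the 1 member called there by DESeq2 (0.0224).

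The Vav-Cre libraries also stood apart in markers of other cells, in some lists together and in others not. The 6 mast cell and basophil genes summed to 10.4 to 14.9 CPM in the wild type libraries, 24.8 to 41.2 with Mx1-Cre, and 16.5 in Vav-Cre 1 but 241 in Vav-Cre 2, most of it Fcer1a (209). Cpa3 (25.2) and Gzmb (6.45 CPM) were also above the wild type libraries in Vav-Cre 2. Mcpt8 (0.0620) was below them and Ms4a2 (0.899 CPM) within their range. Prss34 had no count in either knockout line. The 10 genes of dividing cells summed to 1940 to 2030 CPM in the wild type libraries, 2630 to 3260 in the Mx1-Cre libraries, 2730 in Vav-Cre 1 and 1320 in Vav-Cre 2. The 5 erythroid genes summed to 72.0 to 151 CPM in the wild type libraries and 100 to 241 with Mx1-Cre, but to 14.7 in Vav-Cre 1 and 41.1 in Vav-Cre 2, below all 6 others. Car1 made up most of the sum in the wild type and Mx1-Cre libraries, and the globin genes Hba-a1 and Hbb-b1 had no count in any library. Sums of 6 megakaryocyte genes were 680 to 875 CPM in wild type, 508 to 752 with Mx1-Cre, and 321 and 596 with Vav-Cre. For 6 lymphoid genes they were 161 to 172, 107 to 184, and 139 and 150 CPM in the same order. For 5 genes of stroma and endothelium they were 109 to 137, 42.6 to 67.8, and 85.1 and 91.6 CPM. Mycn was at 198 CPM in Vav-Cre 1 and 199 in Vav-Cre 2, and without Vav-Cre 2 its Vav-Cre value was 0.88. Vav-Cre 1 itself lay outside the wild type range in each of these sums. The part of other cells in the Mnt and Mycn levels was not tested.

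Mxi1, an MXD family repressor, was the one member whose 5 knockout libraries all lay above wild type. It measured 44.6, 45.0 and 49.8 CPM in the wild type libraries, 53.9, 65.1 and 55.5 with Mx1-Cre, and 62.5 and 61.1 in the Vav-Cre libraries. Such a separation of wild type from all knockout libraries was found in 11.7% of tested genes, so 1 of 9 members is near the background. The log2 fold change was 0.37 ± 0.13 with both lines averaged (interval 0.09 to 0.64, adjusted p = 0.172), 0.32 ± 0.14 with Mx1-Cre and 0.41 ± 0.15 in the Vav-Cre libraries (adjusted p = 0.272 and 0.270). DESeq2 gave adjusted p = 0.0805 for both lines averaged. The averaged value moved between 0.33 and 0.42 as single libraries were left out. Gm10197, on the opposite strand, shares 194 exon bases with Mxi1 in the annotation, and the protocol keeps no strand.

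Mxd3, the MXD member known for its expression in S phase, was highest in the Mx1-Cre libraries. It lay at 4.09, 6.66 and 6.25 CPM in the wild type libraries, 7.94, 8.34 and 15.3 with Mx1-Cre, and 5.92 and 4.68 in the Vav-Cre libraries. The Mx1-Cre libraries stood above all others, and Mx1-Cre 3 was far above the rest of its group. The log2 fold change was 0.89 ± 0.33 in the Mx1-Cre libraries (interval 0.16 to 1.62, adjusted p = 0.202) and 0.52 without Mx1-Cre 3. In the Vav-Cre libraries it was -0.10 ± 0.37 (adjusted p = 0.947), a sign that 3 alternatives turned (0.03 without wild type 2, 0.06 without Vav-Cre 2, and 0.12 with a replicate block). The difference between the lines was -0.99 ± 0.38 (interval -1.83 to -0.15, adjusted p = 0.302), or -0.62 without Mx1-Cre 3, and did not pass. The 10 genes of dividing cells, given above, summed higher in each Mx1-Cre library than in each wild type library. All 10 had positive values in the Mx1-Cre libraries against wild type (median 0.56) with 0 called by edgeR, 4 at an unadjusted p under 0.05 and 2 called by DESeq2, where the shares over all genes were 2.49%, 16.6% and 6.92%. Their sum in Vav-Cre 1 (2730 CPM) was above that in Mx1-Cre 2 (2630), while Mxd3 in Vav-Cre 1 lay inside the wild type range. The part of cell division in the Mxd3 level was not tested. Exons of Prelid1, on the opposite strand, share 105 bases with those of Mxd3 in the GENCODE annotation, so with unstranded libraries reads there could come from either gene.

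Mxd1, a MAX partner linked to differentiation, and Mxd4 did not separate the groups. Mxd1 ranged from 28.7 to 38.9 CPM in the wild type libraries, 27.5 to 37.6 with Mx1-Cre and 32.5 to 37.8 in the Vav-Cre libraries. Mxd4, the least expressed of these repressors, had 3.88 ± 1.45 CPM (SD, n = 3), 3.41 ± 0.786 (n = 3) and 3.54 ± 0.647 (n = 2), from 68 to 160 counts per library, and it too has an overlapping antisense gene in the annotation. The ranges of the groups overlapped for both genes. Mxd1 had -0.03 ± 0.19 with Mx1-Cre and 0.13 ± 0.21 in the Vav-Cre libraries, and Mxd4 -0.19 ± 0.39 and -0.13 ± 0.43 (edgeR adjusted p from 0.862 to 0.957). The intervals of Mxd4 (-1.04 to 0.67 and -1.09 to 0.82) include a 2-fold lower level. Within the length-scaled sum of the 4 MXD family genes, Mxi1 gave 31.1 to 43.4% and Mxd1 22.0 to 38.2% over the 8 libraries. Mxd3 gave 18.6 to 26.3% in wild type, 25.8, 27.3 and 43.2% with Mx1-Cre, and 20.6 and 16.1% in the Vav-Cre libraries.

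Mga, which encodes the largest protein of the network and a scaffold of a Polycomb complex, lay at nearly the same level in all groups. It lay at 399, 404 and 431 CPM in the wild type libraries, 416, 417 and 384 with Mx1-Cre, and 414 and 453 in the Vav-Cre libraries. Its coefficient of variation within groups was 4.21 to 6.33%, against 10.8 to 15.7% for Myc. The log2 fold change was -0.02 ± 0.11 in the Mx1-Cre libraries (interval -0.27 to 0.23) and 0.08 ± 0.13 in the Vav-Cre libraries (interval -0.20 to 0.35), with edgeR adjusted p = 0.953 and 0.862, and these intervals are narrower than those of the other 8 tested members.

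**Figure D3:**
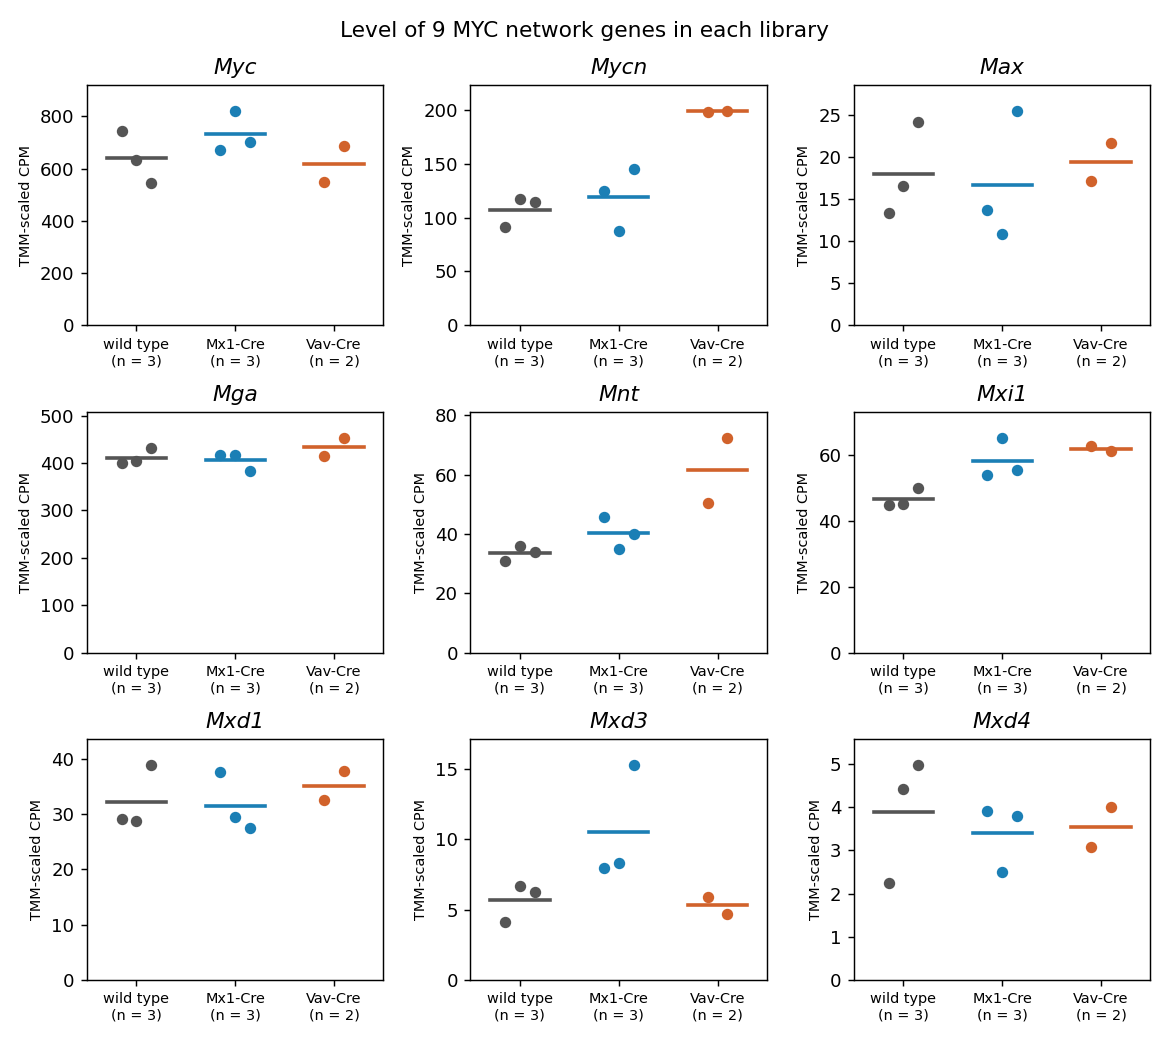
TMM-scaled CPM of 9 network genes in each library (points) with the group mean (lines), for 3 wild type, 3 Mx1-Cre and 2 Vav-Cre libraries. Mycn and Mnt are highest in the Vav-Cre libraries, Mxd3 in the Mx1-Cre libraries, Mxi1 is above wild type in all 5 knockout libraries, and the groups overlap for Myc, Max, Mga, Mxd1 and Mxd4.

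Counted over members, libraries of Mx1-Cre and wild type did not overlap for 2 of 9 (Mxd3 and Mxi1), where 25.6% of all tested genes did not. Vav-Cre and wild type did not overlap for 3 of 9 (Mycn, Mnt and Mxi1) against 32.8% of all genes. Between the lines 3 of 9 stood apart (Mycn and Mnt higher in the Vav-Cre libraries, Mxd3 lower) against 25.8%. These shares are close to the background, so separation of libraries by itself does not set the network apart. The length-scaled sum of Myc and Mycn over that of the MXD genes and Mnt was 9.03 to 14.5 in wild type, 9.57 to 12.0 with Mx1-Cre, and 9.05 and 9.35 in the Vav-Cre libraries. In this ratio the wild type range overlapped both others, and the Vav-Cre libraries lay below the Mx1-Cre libraries. The comparisons of both lines with wild type share the 3 wild type libraries.

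**Figure D4:**
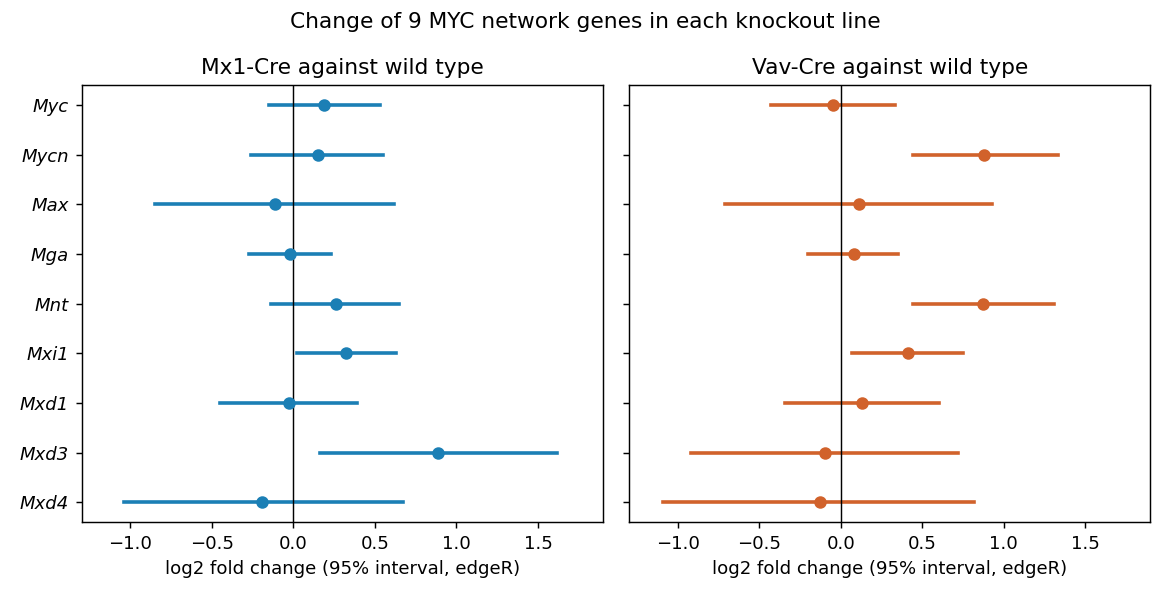
Log2 fold change of 9 network genes against wild type in each knockout line (points) with 95% intervals from edgeR (lines). The Vav-Cre intervals of Mycn (0.44 to 1.33), Mnt (0.44 to 1.31) and Mxi1 (0.07 to 0.75) and the Mx1-Cre intervals of Mxd3 (0.16 to 1.62) and Mxi1 (0.02 to 0.63) lie above 0 before adjustment for the number of genes, and no adjusted p passed.

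The promoter windows of the members are shown for motifs of the network's own binding site and of E2F, a cell cycle factor. RefSeq windows (build GRCm38.p6, 250 bases before to 50 after a start site) were matched for 9 of 10 members, Mycl1 under its present symbol Mycl, and not for Myc. The E-box CACGTG, which reads the same on both strands, was in a window of 3 of these 9 members, Mnt, Max and Mxd4. Over all genes with windows the share was 8.09%, and over all 32851 windows 7.15%. The E2F-type words TTTGGCGC, TTTCGCGC, TTTCCCGC and TTTGCCGC, searched on both strands, were in 1 member, Mycn, with 3 matches of which a pair overlaps. They were in 2.6% of all genes with windows and in 2.26% of all windows. These words were chosen after the Mycn window had been seen. Any link of the matches to the levels of the members was not tested. These matches describe letters, not bound sites. The stretches are written 5′ to 3′ on the strand of the gene, with the motif in capitals. The first is the Mycn stretch at chr12:12941982-12942034 (minus strand), whose motifs begin 183 bases before the start site.
Mycn: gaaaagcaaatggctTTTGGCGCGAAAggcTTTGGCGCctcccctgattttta
The others are Mnt at chr11:74830786-74830821 (plus strand, motif from 123 bases before the start), Max at chr12:76962231-76962266 (minus strand, motif from 3 bases before) and Mxd4 at chr5:34187909-34187944 (minus strand, motif from 219 bases before).
Mnt: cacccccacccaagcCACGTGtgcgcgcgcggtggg
Max: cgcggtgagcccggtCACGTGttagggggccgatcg
Mxd4: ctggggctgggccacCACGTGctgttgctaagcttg

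Beside the members, the MLX branch of the network joins glucose sensing to the same kind of E-box. Mlx, its dimer partner, had 44.9 ± 8.01 CPM in the wild type libraries (SD, n = 3), 40.9 ± 9.72 in the Mx1-Cre libraries (n = 3) and 42.1 ± 1.11 in the Vav-Cre libraries (n = 2). Mlxip, which encodes the glucose-responsive partner MondoA, had 109 ± 9.53, 103 ± 5.76 and 146 ± 50.4 CPM, the last from libraries at 110 and 181 CPM. Its Vav-Cre log2 fold change of 0.42 ± 0.19 (edgeR adjusted p = 0.387) rests on libraries that differ this much. Mlxipl, which encodes ChREBP, stayed at 1.09 CPM or less. None of the 3 passed in any comparison.

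The partner lists gave no call either. With edgeR 0 of 11 MYC coactivator genes, 0 of 10 SIN3 and HDAC corepressor genes, 0 of 9 MGA complex genes, 0 of 14 genes of MYC protein turnover and 0 of 14 textbook MYC targets passed in any of the 4 comparisons. With both lines averaged, DESeq2 called 0 of them as well, and those with an unadjusted p below 0.05 numbered 2, 1, 0, 0 and 1. Over all genes in that comparison these shares were 2.65% for edgeR, 6.27% for DESeq2 and 16.5% for the unadjusted p. Lists this short cannot be placed above or below such shares. The most abundant genes of these lists had small values with both lines averaged (all edgeR): the coactivators Hcfc1 (0.19 ± 0.16) and Ep400 (0.23 ± 0.11), the corepressors Ncor1 (0.21 ± 0.10) and Rbbp4 (0.11 ± 0.12), and Rnf2 (0.02 ± 0.16) and Tfdp1 (0.15 ± 0.14) of the MGA complex. The value of Rnf2, a ubiquitin ligase gene of Polycomb complexes, turned sign under several alternatives, from -0.12 without Vav-Cre 1 to 0.13 without Vav-Cre 2. Gsk3b, a kinase that marks MYC for turnover, had 0.17 ± 0.19, and the targets Ccnd2, a G1 cyclin gene, and Ldha, a glycolytic gene, had -0.03 ± 0.14 and 0.10 ± 0.13. The targets' median was 0.07 in the Mx1-Cre libraries (10 of 14 positive) and -0.20 in the Vav-Cre libraries (12 of 14 negative), beside 0.01 and -0.01 over all tested genes. The corepressors were positive in 10 of 10 genes in the Mx1-Cre libraries (median 0.20) and in 7 of 10 in the Vav-Cre libraries (median 0.11). Of all 14086 tested genes, 7221 and 6903 were positive in these comparisons. The coactivators (8 of 11 positive, median 0.20) and turnover genes (10 of 14, median 0.25) had Mx1-Cre medians at least as high.

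Directly between the lines, the lists had 1, 1, 1, 2 and 4 genes at an unadjusted edgeR p under 0.05, in the order above. All were lower in the Vav-Cre libraries, and 13.3% of all tested genes had such a p. DESeq2 called 1 of the 14 turnover genes, 1 of the 14 targets and 0 in the other lists, against 3.17% of all genes it adjusted. Both genes were lower in the Vav-Cre libraries, and they are named because of that call. Skp2, which encodes an F-box protein of a MYC ubiquitin ligase, had 68.8 ± 4.92 CPM in the wild type libraries, 98.2 ± 14.0 with Mx1-Cre and 58.0 ± 16.7 in the Vav-Cre libraries. Its difference of -0.76 ± 0.20 had adjusted p = 0.173 in edgeR and 0.0220 in DESeq2. It was -0.49 (edgeR adjusted p = 0.617) without Vav-Cre 2 and -1.09 (0.0304) without Vav-Cre 1. Tfrc, the transferrin receptor gene and a MYC target, had 71.0 ± 5.73, 92.7 ± 4.84 and 61.5 ± 0.762 CPM, with -0.59 ± 0.14 (adjusted p = 0.148 in edgeR and 0.00858 in DESeq2). For both genes the libraries of the lines did not overlap, as for 25.8% of all tested genes.

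By likeness of pattern, the genes closest to Mycn over the 8 libraries, among 9583 others with mean log2 CPM of at least 3, were Sp1 (Pearson r = 0.965), Brf2 (0.951) and 4933439C10Rik (0.951). Sp1 encodes a general transcription factor and Brf2 a subunit of the RNA polymerase III machinery. Closest to Myc were the sorting nexin gene Snx11 (0.963), the ERK phosphatase gene Dusp6 (0.955) and Alkbh4 (0.954). These are the extremes of many genes compared over few libraries, which share depth and scaling, and they carry no test.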

How the data were processed

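RNA-seq was measured in 8 libraries, grouped by title, made with an unstranded SMARTer protocol per the labels. TopHat, SAMtools, HTSeq and edgeR with mm9 are named in the submitters' processing notes, and which annotation and strand setting were counted with is not given in the sources used here. Raw counts of reads, whole numbers for each gene, make up the deposited count table. The authors' second deposited table holds CPM, equal to count over library total to a relative difference of 5.1e-15, and was used for 1 alternative. Counts were filtered with filterByExpr (minimum count 10, minimum total 15), scaled with TMM and tested with edgeR 4.0.16 (quasi-likelihood, 1 fit over all 8 libraries, group as the only term), in R 4.3.3. P-values were adjusted by Benjamini-Hochberg across the 14086 tested genes and called below 0.05. Each SE was derived as the size of the log2 fold change over the square root of F. Depth was 28689765 to 33202926 counts per library. Alternatives were DESeq2 1.42.0, limma-trend (limma 3.58.1) on log2 of the deposited CPM plus 1, other scalings, no filter, only the groups compared, a replicate block, and each library left out. Promoter windows are from RefSeq (GRCm38.p6). Exon lengths for levels between genes are unions over GENCODE M21 coding transcripts, a different build from the counting, so these levels are approximate. Named genes are the members, Huwe1, the MLX branch, at most 2 genes per list by mean CPM, and the 3 most alike to Myc and to Mycn. Kit, Ly6a, Slamf1 and other markers come from fixed marker lists, and Skp2 and Tfrc were chosen after their values were seen. Members and lists were chosen with earlier results of these data known.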

Additional observations from a re-analysis of the deposited data

How the results depend on the processing

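Of 889 alternative values of single genes over 16 other settings, 829 kept their direction and side of the threshold, 12 passed only under the alternative and 48 had the other sign. No scaling moved the median of all genes by over 0.1. Called genes with both lines averaged, in Mx1-Cre, in Vav-Cre and between lines were 373, 351, 72 and 24. They were 943, 1041, 616 and 467 with DESeq2. Limma-trend gave 604 for Mx1-Cre and 146 for Vav-Cre. Without a filter Vav-Cre had 174 and the lines 81, and with only the groups compared Mx1-Cre had 575, Vav-Cre 111 and the lines 3. Leaving out single libraries gave 22 to 502, 58 to 565, 5 to 196 and 3 to 412, the first 3 lowest without wild type 2 and the last without wild type 3; the last 2 were highest without Vav-Cre 1. Network genes called were 1, 0, 2 and 1 with DESeq2, 1 in Vav-Cre with no filter or with only the groups compared, and 0 to 1 with single libraries left out, in both lines averaged and in Vav-Cre.

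The labels do not say what a replicate number shares. Same-numbered libraries of different groups had correlations of deviations from -0.07 to 0.13, beside -0.18 to 0.16 for differently numbered ones. Deviations from the mean of so few libraries depend on each other, so these values cannot show whether the numbers pair libraries. With a replicate block the counts were 218, 235, 20 and 9, 0 network genes were called, Mxd3 in Vav-Cre had 0.12, and Mxd4 and Mlx in Vav-Cre each had 0.04, and Rnf2 with both lines averaged had -0.02. With both lines averaged Mga had -0.02 under library totals and under limma-trend, and Rnf2 had -0.04 and -0.05 there and -0.01 with upper quartile scaling.

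When single libraries were left out, signs turned within these ranges. With both lines averaged they were -0.04 to 0.19 for Myc, -0.03 to 0.20 for Mxd1, -0.44 to 0.06 for Mxd4, -0.12 to 0.13 for Rnf2 and -0.09 to 0.08 for Ccnd2. In Mx1-Cre they were -0.01 to 0.34 for Mycn, -0.55 to 0.16 for Max, -0.18 to 0.13 for Mxd1, -0.46 to 0.03 for Mxd4, -0.04 to 0.02 for Mga, -0.06 to 0.03 for Huwe1 and -0.32 to 0.03 for Mlx. In Vav-Cre they were -0.22 to 0.10 for Myc, -0.07 to 0.38 for Max, -0.29 to 0.06 for Mxd3 and -0.41 to 0.09 for Mxd4. Between lines they were -0.02 to 0.67 for Max and -0.15 to 0.23 for Mxd4. The cause of these turns was not tested. Leaving out a Vav-Cre library leaves 1, which is then assumed to vary like the other groups.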
